A study of Mus musculus with 17 samples.

Results

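The genes described here are 10 mouse genes that lymphocytes are known by: Cd3d, Cd3e and Cd3g, Cd4, Cd8a, Cd8b1, Cd2, Gzmb, Nkg7 and Ptprc. They were given by name, and their rows were looked up by gene symbol in 4 tables of gene counts. The hippocampus table held 8 of them among its 24652 genes. The neuron tables held 5 (ADM, 31762 genes), 5 (set 1, 30552 genes) and 6 (set 2, 30984 genes), and 9 of the 10 were found in at least 1 table, out of 36271 genes in any table. Gzmb, the cytotoxic protease granzyme B, was not analysed here. All 24 rows carried the gene identifier and the mm10 position of the GENCODE M21 annotation.

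The study measured RNA in 17 libraries of C57BL/6 mice, a common inbred strain. Hippocampus gave 3 libraries, 1 per group: mice given ApoE shRNA with FC, mice given control shRNA with FC, and mice given control shRNA without FC. All of these mice carried a short hairpin RNA (shRNA), an RNA that lowers its target transcript, so none of the hippocampus libraries is from untreated tissue. The labels do not spell out FC, the route or cell type of the shRNA, the age of the mice, or how many mice a library pools. Primary neurons gave 14 libraries in 7 groups of 2: neurons with ADM and their control, neurons with an ApoE particle and their control (set 1), and neurons with an ApoE particle, with a reconstituted ApoE particle, and their control (set 2). ADM is not spelled out either, and whether a group's 2 libraries stem from separate cultures is not said, so p-values measure only the spread between these libraries.

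T cells recognise peptides bound to major histocompatibility complex (MHC) molecules through a receptor whose signal is carried into the cell by the CD3 chains. CD4 binds MHC class II and marks helper and regulatory T cells, while CD8, a dimer of an alpha and a beta chain, binds MHC class I and marks cytotoxic T cells. Cytotoxic T cells and natural killer (NK) cells share a granule programme that includes Nkg7, and CD45, the product of Ptprc, is on nearly all nucleated blood cells and on microglia. Healthy brain tissue holds few lymphocytes, and most of its CD45-positive cells are microglia.

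The upstream sequences of 1 CD3 gene, 1 co-receptor gene and 1 granule gene are shown because these 3 genes, of 3 roles, had 0 counts in the ApoE shRNA library and 62 to 323 counts in the control shRNA library with FC. Each is the 250 bases before the RefSeq start in GRCm38.p6, the same assembly as mm10. Capitals mark matches on either strand to TGTGGT, the core bound by RUNX factors, or to AGGAAG, a core bound by ETS factors, both factor families of lymphocytes.
Cd3d, chr9:44981536-44981785, strand +: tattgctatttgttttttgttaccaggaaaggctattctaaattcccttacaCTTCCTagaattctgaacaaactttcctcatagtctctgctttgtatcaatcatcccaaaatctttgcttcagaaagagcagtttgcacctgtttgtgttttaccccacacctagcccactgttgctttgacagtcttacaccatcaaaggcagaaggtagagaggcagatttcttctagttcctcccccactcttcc
Cd8a, chr6:71373177-71373426, strand +: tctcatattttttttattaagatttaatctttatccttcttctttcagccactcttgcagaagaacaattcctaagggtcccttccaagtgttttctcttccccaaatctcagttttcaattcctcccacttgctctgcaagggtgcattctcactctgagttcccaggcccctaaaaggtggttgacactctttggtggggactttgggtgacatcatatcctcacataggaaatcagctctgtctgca
Nkg7, chr7:43436888-43437137, strand +: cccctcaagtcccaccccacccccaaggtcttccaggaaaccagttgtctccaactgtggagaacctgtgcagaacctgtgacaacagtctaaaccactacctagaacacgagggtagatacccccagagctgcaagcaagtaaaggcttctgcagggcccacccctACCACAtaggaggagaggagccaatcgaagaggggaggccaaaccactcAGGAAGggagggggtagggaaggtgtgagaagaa
The Cd3d sequence held 1 AGGAAG match, which begins 198 bases before the start. The Nkg7 sequence held 1 TGTGGT match 83 bases and 1 AGGAAG match 34 bases before its RefSeq start, and none of these matches overlapped. GENCODE M21 starts Nkg7 inside this window, at 43437073, so that the AGGAAG match falls within the gene as annotated there. The Cd8a sequence held neither motif, which says only that these letters are not in this window. RefSeq promoters were found for 7 of the 10 genes, 8 promoters in all, of which the pair of Ptprc overlap. Of the 7 genes, 2 held TGTGGT and 4 held AGGAAG, while over all 32851 promoters of this length 14% held TGTGGT and 29.5% held AGGAAG. The E-box CAGCTG, read alike on both strands, was in 0 of the 7 genes and in 13% of all promoters, and TATAAA was in 1 of the 7 and in 12.4% of all.

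The ApoE shRNA library held 18.9 M counts, against 17.8 M in the control shRNA library with FC and 18.2 M in that without FC, and the range over all 17 libraries was 14.6 M to 19.1 M. Apoe, the gene targeted by the shRNA, stood at 1384 CPM (counts scaled to a common library size) in the ApoE shRNA library, against 2797 CPM in the control shRNA library with FC and 1697 CPM in that without FC. With 1 library per group there is no test between hippocampus libraries, and the 95% intervals given with them are exact and cover counting error only. The control shRNA library with FC stands apart from the others. Microglia markers summed to 1930 CPM in it, against 385 CPM in the ApoE shRNA library and 525 CPM in the library without FC. The complement genes C1qa, C1qb and C1qc gave 453, 319 and 275 CPM of the 1930 CPM. B cell, macrophage and antigen presentation genes were also highest in the control shRNA library with FC, as given below. Every comparison that uses this library rests on that single sample. The ratio of the ApoE shRNA library to the library without FC leaves it out and is given last.

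In the control shRNA mice, the lymphocyte genes were read almost only with FC. Apart from Ptprc, the 7 genes in the hippocampus table summed to 890 counts (95% Poisson interval 832 to 950) with FC and to 19 counts (11.4 to 29.7) without FC. That is 50.04 CPM (46.8 to 53.4) with FC against 1.05 CPM (0.630 to 1.63) without FC, a ratio of 47.8 (30.5 to 79.8). In the ApoE shRNA mice, which also had FC, the same genes summed to 4 counts (1.09 to 10.2), or 0.212 CPM, against the 890 counts of the control shRNA mice with FC. The sum was therefore 236-fold lower (92.0 to 869) in the ApoE shRNA library than in the control shRNA library with FC, and 151-fold lower (58.5 to 555) without Cd8a. Bulk counts cannot tell fewer cells of a type from less RNA per cell.

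**Figure D1:**
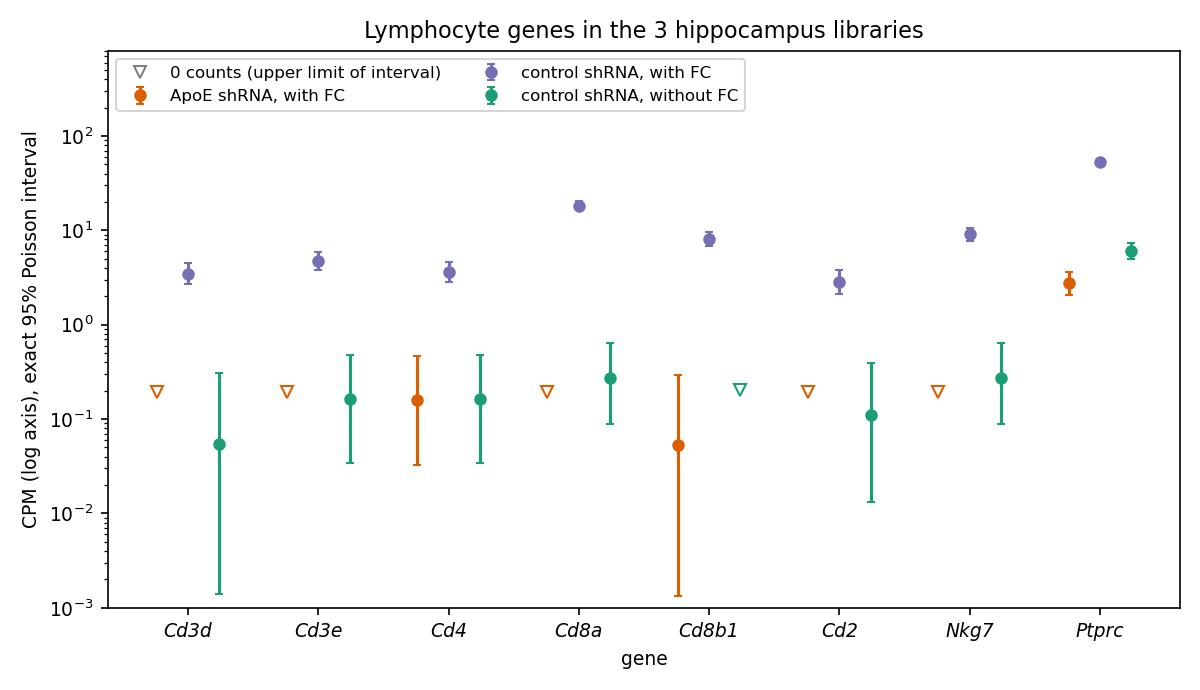
CPM of the 8 lymphocyte genes (log axis) in each hippocampus library, with the exact 95% Poisson interval of the count; open triangles mark the upper limit of that interval where a library had 0 counts. For every gene the control shRNA library with FC is highest, from 2.87 CPM (Cd2) to 52.8 CPM (Ptprc), and 5 of the 8 genes had 0 counts in the ApoE shRNA library.

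The CD3 chains, which carry the signal of the T cell receptor, showed the pattern in both genes measured. Cd3d (ENSMUSG00000032094, chromosome 9, 44981786 to 44987339, plus strand) had 0 counts in the ApoE shRNA library, 62 in the control shRNA library with FC and 1 in that without FC. Cd3e (ENSMUSG00000032093, chromosome 9, 44998740 to 45009627, minus strand) had 0, 84 and 3 counts in the same libraries. Both were thus read in number only in the control shRNA library with FC. In control shRNA mice the CPM ratio of FC over no FC was 63.3 (11.0 to 2541) for Cd3d and 28.6 (9.46 to 141) for Cd3e. Between the libraries with FC, Cd3d was at least 22.0-fold and Cd3e at least 29.7-fold lower with ApoE shRNA than with control shRNA, where the library at 0 is set at 3 counts, the limit that a count of 0 allows. The exact 95% interval of the ratio, which also covers the counting error of the other library, begins lower, at 17.3-fold for Cd3d and 23.7-fold for Cd3e, and such a limit follows each fold of this kind below. The exons of Cd3e share 135 bases with Gm48719 on the other strand, and the strand setting of the counting is not given in the sources used here. Cd3g was not analysed here in hippocampus.

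Apart from Ptprc, the CD8 co-receptor genes carried the largest share of the counts in the control shRNA library with FC. Cd8a (ENSMUSG00000053977, chromosome 6, 71373427 to 71379173, plus strand), which encodes the alpha chain, had 0 counts with ApoE shRNA and FC, 323 with control shRNA and FC, and 5 with control shRNA without FC. Cd8b1 (ENSMUSG00000053044, chromosome 6, 71322788 to 71337494, plus strand), which encodes the beta chain, had 1, 144 and 0 counts. The beta chain marks conventional cytotoxic T cells, whereas the alpha chain alone is also found on some dendritic cells. In control shRNA mice Cd8a was 66.0-fold (28.0 to 205) and Cd8b1 at least 49.0-fold (interval from 39.4) higher with FC. Between the libraries with FC, Cd8a was at least 114-fold (interval from 92.5) lower with ApoE shRNA, and Cd8b1 was 153-fold lower (27.0 to 6084).

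Cd4 (ENSMUSG00000023274, chromosome 6, 124864692 to 124888221, minus strand), the co-receptor of helper T cells that some macrophages also carry, had 3 counts with ApoE shRNA and FC, 65 with control shRNA and FC, and 3 with control shRNA without FC. Its ratio of FC over no FC in control shRNA mice was 22.1 (7.24 to 110), and it was 23.0-fold lower (7.54 to 115) with ApoE shRNA than with control shRNA, both with FC. Levels of the co-receptors were set side by side in the control shRNA library with FC as counts per exon length. Cd8a stood 5.51 times (4.21 to 7.31) and Cd8b1 6.02 times (4.46 to 8.20) as high as Cd4 on that scale. The chains of CD8 could not be told apart (Cd8a over Cd8b1 0.915, 0.749 to 1.12), and Cd3d stood 1.66 times (1.18 to 2.33) as high as Cd3e. As levels, these were 4.99 RPKM (CPM per kilobase of exon) for Cd8a, 5.46 for Cd8b1, 0.906 for Cd4, 1.92 for Cd3d and 1.16 for Cd3e.

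Cd2 (ENSMUSG00000027863, chromosome 3, 101275899 to 101287939, minus strand) encodes an adhesion and costimulatory receptor of T and NK cells. It had 0 counts with ApoE shRNA and FC, 51 with control shRNA and FC, and 2 with control shRNA without FC. It was at least 18.1-fold (interval from 14.2) lower with ApoE shRNA than with control shRNA, both with FC, and its ratio of FC over no FC was 26.0 (6.85 to 221). Nkg7 (ENSMUSG00000004612, chromosome 7, 43437073 to 43438249, plus strand) encodes a membrane protein of cytotoxic granules. It had 0, 161 and 5 counts in the same libraries, and at 9.90 RPKM in the control shRNA library with FC it had the highest level per exon length of the genes described here. Nkg7 was at least 57.0-fold (interval from 45.8) lower with ApoE shRNA between the libraries with FC and 32.9-fold (13.8 to 103) higher with FC in control shRNA mice.

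Ptprc (ENSMUSG00000026395, chromosome 1, 138062861 to 138175708, minus strand) differed between the libraries by a smaller factor. It had 52 counts with ApoE shRNA and FC, 939 with control shRNA and FC, and 111 with control shRNA without FC. The 3 libraries kept the same order of highest to lowest as the sum of the other genes, but none was near 0. Ptprc was 8.64-fold (7.09 to 10.6) higher with FC in control shRNA mice and 19.2-fold (14.5 to 25.9) lower with ApoE shRNA between the libraries with FC. The sum of the other 7 genes was 0.0769 of the Ptprc count in the ApoE shRNA library, 0.948 in the control shRNA library with FC and 0.171 in that without FC.

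**Figure D2:**
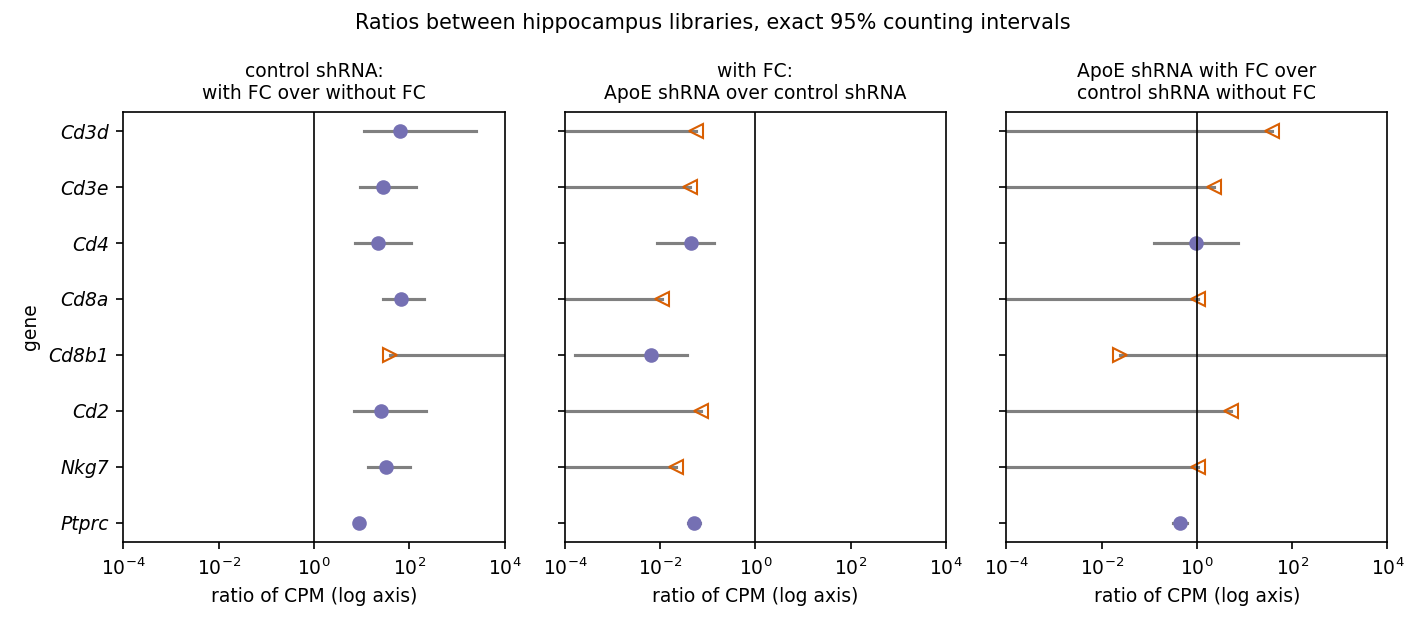
Ratio of CPM between pairs of hippocampus libraries for the 8 lymphocyte genes (log axis), with exact 95% counting intervals; open triangles stand at the bound of the interval where a library had 0 counts. With control shRNA all genes lie above 1 for FC over no FC, with FC all lie below 1 for ApoE shRNA over control shRNA, and in the third panel only the interval of Ptprc, at a ratio of 0.450, lies below 1.

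A gene was called past 2-fold where its higher library had 10 or more counts. Of the 8 genes, 8 were called higher and 0 lower with FC in control shRNA mice, where 10.7% of 18037 genes were called higher and 4.12% lower. Between the libraries with FC, 8 were called lower and 0 higher with ApoE shRNA, where 14.5% of 17940 genes were called lower and 3.12% higher. The 7 genes other than Ptprc reached 10 counts only in the control shRNA library with FC, so that these counts describe that library and lend the pattern no further support. Both comparisons share that library, and their values are not independent of each other. Over all genes the median log2 ratio was 0.03 for FC over no FC and -0.07 for ApoE shRNA over control shRNA.

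A wider list of T cell receptor, signalling and identity genes, 34 given and 31 analysed, was read in the same libraries. Of 29 genes with at least 10 counts, 25 were at least 2-fold higher with FC in control shRNA mice and 0 lower, with a median ratio of 12.6 (10.1 with the genes at 0 set at 3 counts) against 1.02 over all genes. Between the libraries with FC, 26 of 29 were at least 2-fold lower with ApoE shRNA. Of the 29, 17 in the first comparison and 20 in the second reached 10 counts only in the control shRNA library with FC, and could be called in no other direction. The 4 genes of this list with the most counts were Bcl11b, Fyb, Il2rb and Zap70. Bcl11b, a transcription factor of T cells that forebrain neurons also use, had 3006 counts with ApoE shRNA and FC, 2243 with control shRNA and FC, and 2966 with control shRNA without FC, and did not pass 2-fold. Zap70, the kinase that binds the CD3 chains, had 118, 146 and 116 counts and did not pass it either. Fyb, an adaptor that platelets and myeloid cells also have, had 51, 379 and 59 counts, and Il2rb, a receptor chain for interleukin-2 and interleukin-15, had 2, 385 and 8. Il2rb was thus near 0 outside the control shRNA library with FC, while Fyb was read in all 3.

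The next 5 genes of this list were named after their values were seen. The constant region genes Trac and Trbc2 of the alpha-beta T cell receptor had 4 and 6 counts with ApoE shRNA and FC, 90 and 77 with control shRNA and FC, and 11 and 4 with control shRNA without FC. Cd247, the zeta chain of the receptor complex, had 4, 53 and 0 counts. Pdcd1, which encodes the inhibitory receptor PD-1, had 0, 174 and 1 counts, and Cxcr6, a chemokine receptor of tissue T cells, had 2, 135 and 1. The 4 genes of the list that did not pass 2-fold between the control shRNA libraries were Bcl11b, Zap70, Tcf7 and Lef1. Tcf7 and Lef1, also named after their values were seen, had 44 and 41 counts with ApoE shRNA and FC. They had 87 and 93 counts with control shRNA and FC, and 65 and 67 with control shRNA without FC. Their ratios of FC over no FC were 1.37 (0.980 to 1.92) and 1.42 (1.02 to 1.97).

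Of 16 cytotoxic and NK cell genes given, 10 were analysed and 9 had at least 10 counts. With FC in control shRNA mice 8 of the 9 were at least 2-fold higher and 0 lower (median ratio 14.6, or 10.6 with the gene at 0 set at 3 counts), and 7 of 9 were lower with ApoE shRNA between the libraries with FC. In the first comparison 8 of the 9, and in the second 7 of the 9, reached 10 counts only in the control shRNA library with FC, so that these numbers describe that library and are no support. The 4 with the most counts were Ccl5, Ctsw, Gzmm and Prf1. Ccl5, a chemokine made by cytotoxic T cells and also by stimulated glia, had 2 counts with ApoE shRNA and FC, 565 with control shRNA and FC, and 5 with control shRNA without FC. Prf1, the pore-forming protein perforin, had 0, 69 and 3 counts, and Ctsw, a cathepsin of cytotoxic cells, had 9, 85 and 9. Gzmm, granzyme M, went the other way with 34, 21 and 35 counts, a ratio of FC over no FC of 0.613 (0.339 to 1.08) that did not pass 2-fold. Klrb1c, the NK cell receptor NK1.1, had 0, 1 and 1 counts, while Klrk1 and Eomes of the same list had 0, 30 and 1 and 0, 21 and 1. Klrb1c, Klrk1 and Eomes were named after their values were seen.

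**Figure D3:**
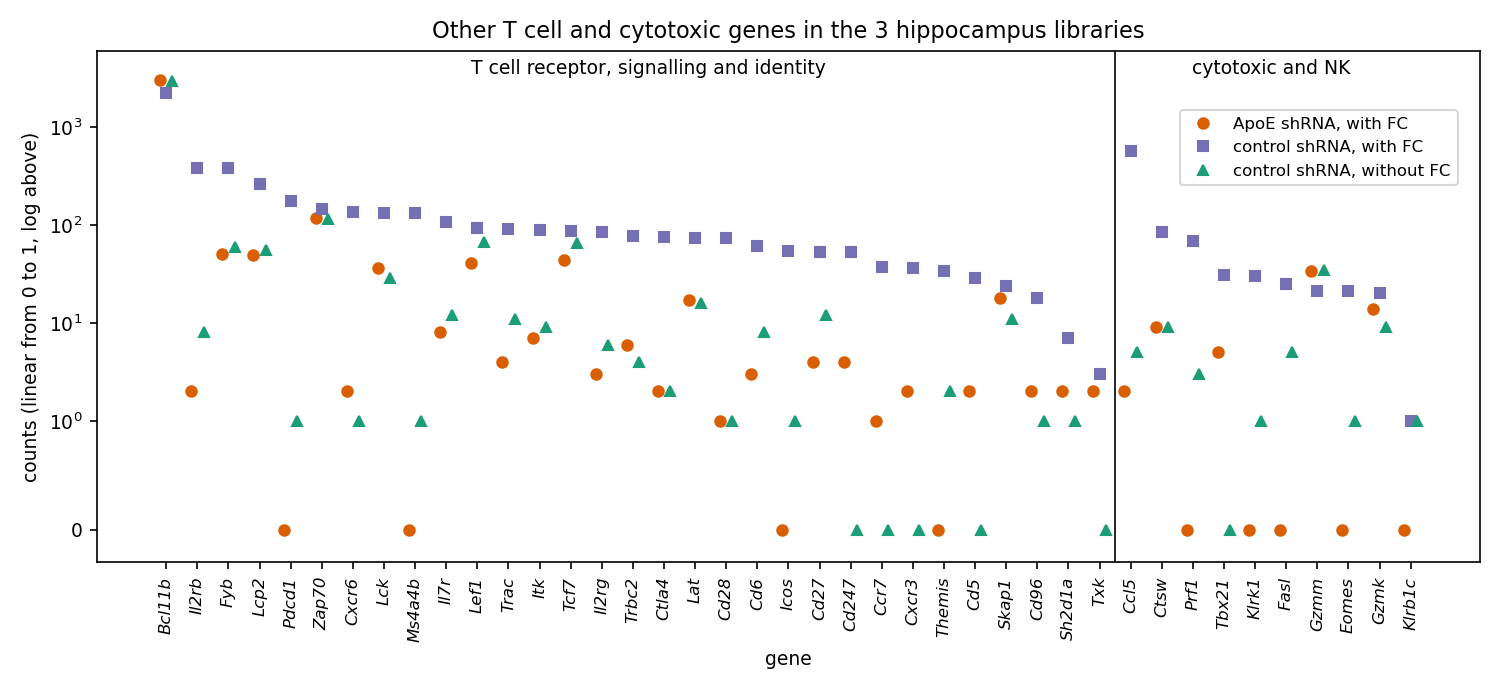
Counts of the other T cell genes and of the cytotoxic and NK cell genes in each hippocampus library (axis linear from 0 to 1 and log above). Most genes stand apart in the control shRNA library with FC, such as Il2rb with 2 counts with ApoE shRNA and FC, 385 with control shRNA and FC and 8 without FC, whereas Bcl11b, Zap70 and Gzmm lie close together in all 3 libraries.

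The ligands that these receptors bind and the signals that draw lymphocytes into tissue were also highest in the control shRNA library with FC. Such genes with at least 10 counts numbered 18 of 19. Between the libraries with FC all 18 were at least 2-fold lower with ApoE shRNA, against 14.5% of all genes. With FC in control shRNA mice 17 were higher (median ratio 10.4), against 10.7% of all genes. Only in the control shRNA library with FC did 9 genes of the first comparison and 4 of the second reach 10 counts. These genes could be called in no other direction. B2m, the light chain of MHC class I, had 1071 counts with ApoE shRNA and FC, 22688 with control shRNA and FC, and 1478 with control shRNA without FC. The class I heavy chains H2-D1 and H2-K1, near copies of each other whose counts the counting could have split, had 671 and 547 counts, 20758 and 15870 counts, and 1106 and 876 counts in these libraries. Cd74, the invariant chain of MHC class II, which CD4 recognises, had 20, 19686 and 87 counts, the widest gap of these 4 genes. Cxcl9 and Cxcl10, chemokines that attract activated T cells and named after their values were seen, had 1 and 3 counts with ApoE shRNA and FC, 723 and 734 with control shRNA and FC, and 1 and 7 without FC.

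Markers of other cell types moved with the lymphocyte genes, and their part in the differences was not tested. B cell markers summed to 14.7 CPM with ApoE shRNA and FC, 510.5 CPM with control shRNA and FC, and 52.5 CPM with control shRNA without FC. Most of that sum was antibody RNA (Ighm 198, 3750 and 238 counts, Igkc 2, 3722 and 461), whereas the B cell surface marker Ms4a1, named after its values were seen, had 1, 8 and 0 counts. Of 11 B cell genes with at least 10 counts, 7 were higher and 1 lower with FC in control shRNA mice. Over all genes 10.7% were higher and 4.12% lower. Of the 11, 2 reached 10 counts only with FC and 1 only without FC, and could be called in no other direction. Microglia markers were at least 2-fold higher for 11 of 17 genes and lower for 1, with the complement gene C1qa at 692, 8066 and 848 counts in the 3 libraries. The other 5 did not pass 2-fold, among them P2ry12 (315, 683 and 543 counts) and Cx3cr1 (399, 1219 and 773). The lower gene was Fcrls (351, 192 and 412), and P2ry12, Cx3cr1 and Fcrls were named after their values were seen. Of 9 markers of border macrophages and monocytes, 8 had at least 10 counts and were higher with FC in control shRNA mice. Among these 8, 4 reached 10 counts only in the control shRNA library with FC and could be called only higher. Pf4, a chemokine named after its values were seen, stayed under 10 counts in that comparison. It had 13 counts with ApoE shRNA and FC, 3 with control shRNA and FC, and 9 without FC. The list summed to 8.63 CPM with ApoE shRNA and FC, 47.1 CPM with control shRNA and FC, and 11.5 CPM without FC.

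Of the pan-leukocyte genes, 10 of 11 were higher with FC in control shRNA mice, against 10.7% of all genes. The gene with the most counts, Coro1a, which neurons also have, was the 1 that did not pass 2-fold (1763, 1776 and 1649 counts). Next in counts was Laptm5, a lysosomal protein of blood cells (659, 2891 and 763). The neutrophil markers S100a8 and S100a9 had 0 and 3 counts with ApoE shRNA and FC, 4 and 2 with control shRNA and FC, and 2 and 0 without FC, at or near 0 in all 3 libraries, and Ltf, lactoferrin, had 1, 23 and 0. Of the dendritic cell markers 2 of 5 were higher with FC in control shRNA mice, with the integrin Itgax at 6, 795 and 10 counts. The second of these reached 10 counts only in the control shRNA library with FC and could be called only higher. The other 3 did not pass 2-fold, among them Flt3 (277, 242 and 247 counts) and Zbtb46 (173, 202 and 244). Of the choroid plexus markers 2 of 3 were higher, with the thyroid hormone carrier Ttr at 46, 602 and 19 counts, while Kl had 441, 268 and 388 and did not pass 2-fold. Of these 3 markers, 1 reached 10 counts only in the control shRNA library with FC and could be called only higher. Erythrocyte markers summed to 24.9 CPM with ApoE shRNA and FC, 44.8 CPM with control shRNA and FC, and 72.8 CPM with control shRNA without FC. The part of blood in the differences was not tested. None of 7 endothelial, 6 neuron or 4 oligodendrocyte markers passed 2-fold between the control shRNA libraries. Of 5 hippocampal field markers 2 were lower with FC, and Fibcd1, a marker of the CA1 field, had 3414 counts with ApoE shRNA and FC, 639 with control shRNA and FC, and 3196 without FC. Gfap, which reactive astrocytes increase, had 8629, 37654 and 10347 counts. It was the only 1 of 4 astrocyte markers past 2-fold between the control shRNA libraries.

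**Figure D4:**
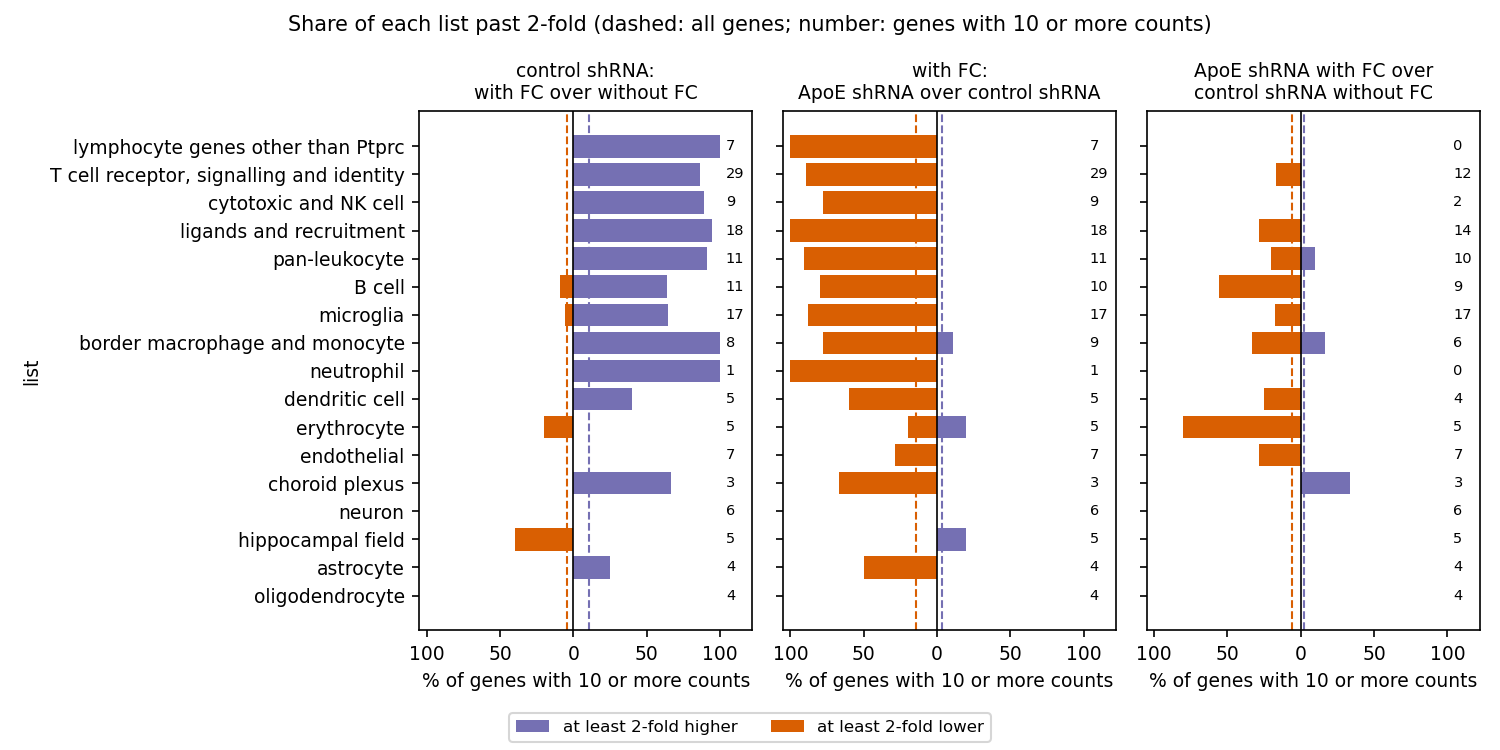
Share of each list's genes with at least 10 counts that were at least 2-fold higher (right) or lower (left) between hippocampus libraries; numbers give the genes with at least 10 counts and dashed lines the share over all genes. In the first panel 7 of 7 lymphocyte genes, 25 of 29 T cell genes and 11 of 17 microglia markers were higher with FC, against 10.7% of all genes.

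The comparison that leaves out the control shRNA library with FC rested on few counts. The 7 lymphocyte genes other than Ptprc summed to 4 counts with ApoE shRNA and FC and to 19 counts with control shRNA without FC, 4.94-fold lower (1.64 to 20.0). None of the 7 had 10 counts in either library. Cd8a and Nkg7 each had 0 counts with ApoE shRNA and 5 without FC, with an interval of the ratio that reaches 1.05, so that no difference was detectable at this depth, and Cd4 had 3 counts in both (ratio 0.961, 0.129 to 7.18). Cd3d, Cd3e, Cd8b1 and Cd2 had 0 to 3 counts in each, and no fold is given for them. Ptprc, with 52 counts against 111, was 2.22-fold lower (1.58 to 3.15), where 5.73% of the 17525 genes with at least 10 counts were at least 2-fold lower and 2.08% higher. Of the T cell list 2 of 12 genes were lower and 0 higher, of the cytotoxic and NK list 0 of 2 passed 2-fold, and of the ligands 4 of 14 were lower. Only in the library without FC did 3 of these 12 T cell genes and 5 of the 14 ligands reach 10 counts. Those genes could be called in no direction but lower. Of the B cell markers 5 of 9 were lower, with Igkc at 2 counts against 461. The other 4 did not pass 2-fold, among them Ighm with 198 counts against 238. Of the 9, 5 reached 10 counts only in the library without FC and could be called in no direction but lower.

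The neuron libraries give the background of these genes where T cells are not part of the culture as labelled. Over the 14 neuron libraries, the lymphocyte genes other than Ptprc summed to 1 to 6 counts per library, with a median of 2 and 40 counts in all (0.0584 to 0.313 CPM). Of these 40 counts 23 were of Cd4, which was above 0 in 8 libraries and had at most 5 counts in any. Cd2 had 10 counts in all, Cd8a 4, Cd3e 2 and Cd3g 1, and Cd8b1 had 0 counts in the 4 libraries with a value. Cd3d and Nkg7 were not analysed here in neurons. Over Cd4, Cd8a and Cd2, which every table holds, the sum was 3 counts with ApoE shRNA and FC, 439 with control shRNA and FC, and 10 with control shRNA without FC, against 1 to 6 in the neuron libraries. The ApoE shRNA hippocampus thus lay within the range of the neuron libraries, and the control shRNA hippocampus without FC lay above it by 4 counts.

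In the neuron comparisons, tested with edgeR's quasi-likelihood test and Benjamini-Hochberg adjustment over all genes, Ptprc was the only one of these genes with enough counts to be tested, in the ADM experiment and in set 1. In set 1 it had 106 and 129 counts with the ApoE particle, against 25 and 25 in the controls, and the groups did not overlap. Ptprc rose with the particle, at 7.12 ± 0.584 CPM against 1.497 ± 0.119 CPM (SD, n = 2 each; log2 fold change 2.15 ± 0.24 SE, edgeR adjusted p = 6.49e-05). In that comparison 18.9% of the 16475 genes tested rose and 17.4% fell. Ptprc moved with the microglia markers, of which 14 of 15 tested rose (summed level 467 to 468 CPM with the particle, against 131 to 154 CPM in controls), and the sum of Cd4, Cd8a and Cd2 was 4 and 1 counts with the particle against 2 and 2 in controls. Other marker lists moved in the same comparison: 4 of 4 astrocyte, 3 of 3 border macrophage and monocyte, 3 of 4 endothelial and 2 of 3 choroid plexus markers tested rose, and 5 of 6 neuron markers fell. The part of these cells in the Ptprc difference was not tested.

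With ADM, Ptprc had 18 and 22 counts, against 10 and 45 in the ADM controls, so that the control libraries lay on both sides of the ADM libraries. Its log2 fold change was -0.24 ± 0.72 (SE, n = 2 each, edgeR adjusted p = 0.945), where 0% of 16191 genes were called, 1426 had an unadjusted p under 0.05 and DESeq2 called 327. In set 2 Ptprc had 3 and 1 counts with the ApoE particle, 2 and 2 with the reconstituted particle, and 3 and 1 in controls, and none of the lymphocyte genes could be tested. There 10% of 16388 genes rose and 12.1% fell with the ApoE particle, and 0% were called with the reconstituted particle by edgeR, with 776 at an unadjusted p under 0.05 and 0 called by DESeq2. The Ptprc level of the set 2 controls, at 1 to 3 counts, was below the 25 counts of each set 1 control, in tables made separately.

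**Figure D5:**
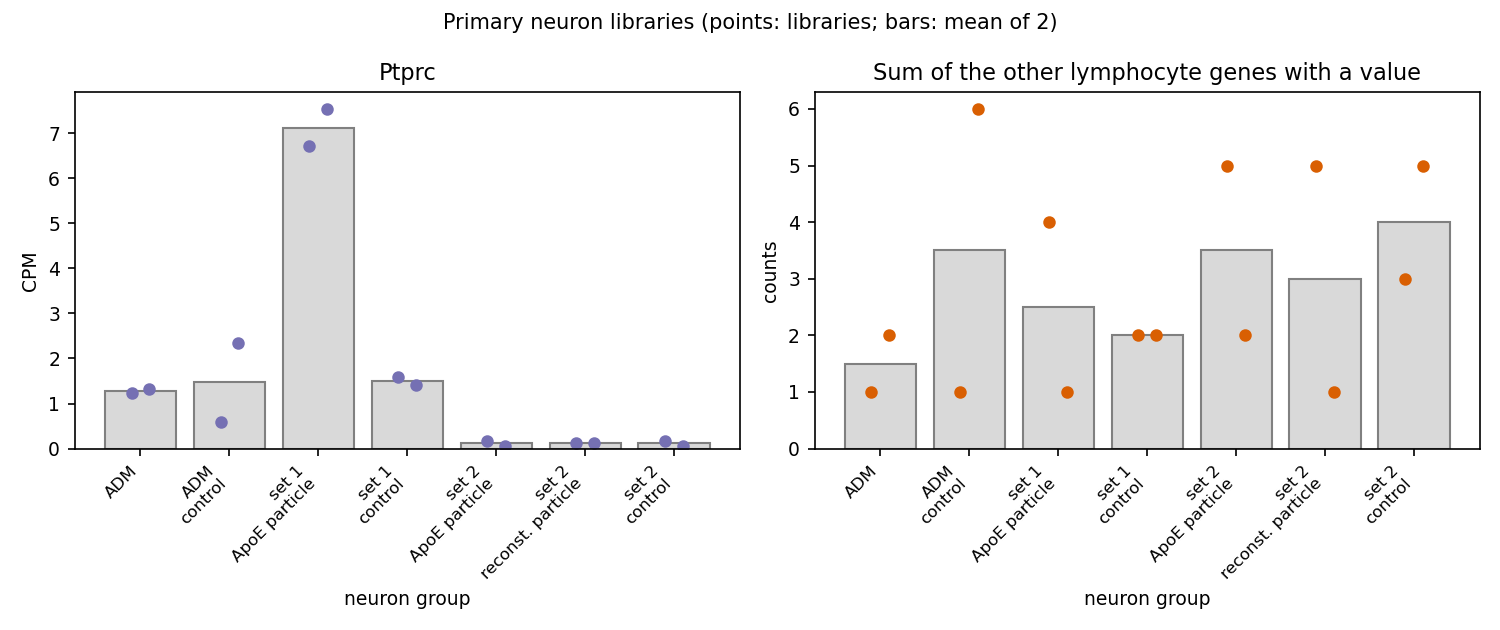
Ptprc in CPM (left) and the summed counts of the other lymphocyte genes with a value (right) in the 14 neuron libraries; points are libraries and bars the mean of 2. Ptprc is highest in the 2 set 1 libraries with the ApoE particle (106 and 129 counts), while the other genes stay between 1 and 6 counts in every group.

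Other T cell list genes were mostly untested in neurons. In set 1, 8 of 31 genes passed the filter on low counts, and 3 rose and 2 fell with the ApoE particle. Over all genes tested there, 18.9% rose and 17.4% fell, so these few calls in mixed directions are no result about T cell genes. Cd28, Fyb and Tcf7 rose by 2.65 ± 0.34, 1.84 ± 0.22 and 1.85 ± 0.25 (log2 fold change ± SE, edgeR adjusted p = 0.000132, 9.24e-05 and 0.000211). Cd28 encodes a costimulatory receptor and Tcf7 a transcription factor of T cells and of other lineages. Bcl11b, a neuronal as well as a T cell transcription factor, fell by 0.35 ± 0.09 (edgeR adjusted p = 0.00728). Lck, the kinase next to the T cell receptor, fell by 0.87 ± 0.21 (edgeR adjusted p = 0.00786). In set 2 with the ApoE particle, of 4 tested genes Lck rose by 0.48 ± 0.17 (edgeR adjusted p = 0.0453), and Tcf7 (-0.86 ± 0.31, adjusted p = 0.0496) and Bcl11b (-0.18 ± 0.06, adjusted p = 0.0244) fell. Over all genes tested, 10% rose and 12.1% fell in that comparison. Tcf7 and Lck thus went in opposite directions in the 2 sets, and the difference was not tested. Of the cytotoxic and NK list, 0 of 4 tested genes were called with ADM, 0 of 1 in set 1 and 0 of 2 in set 2 in both comparisons.

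Ligand and recruitment genes were called in both particle experiments. Over all genes tested, 18.9% rose and 17.4% fell in set 1. With the ApoE particle in set 2, 10% rose and 12.1% fell. In set 1, 7 of 11 tested rose and 0 fell, among them Vcam1, an adhesion ligand of lymphocytes (log2 fold change 0.85 ± 0.10, edgeR adjusted p = 5.98e-05), Cxcl10 (2.13 ± 0.25, adjusted p = 8.14e-05), Icam1 (1.92 ± 0.24, adjusted p = 0.000126) and Serpinb9, an inhibitor of granzyme B (1.49 ± 0.19, adjusted p = 0.000153). In set 2 with the ApoE particle, 0 of 9 rose and 6 fell, among them B2m (-1.67 ± 0.07, edgeR adjusted p = 2.96e-15), H2-K1 (-1.97 ± 0.09, adjusted p = 2.82e-13), Vcam1 (-1.36 ± 0.09, adjusted p = 3.43e-09) and H2-D1 (-0.67 ± 0.07, adjusted p = 1.31e-07). In set 2 with the ApoE particle 4 of 4 astrocyte and 3 of 6 neuron markers fell as well and 0 of 2 microglia markers tested were called, and their part in the ligand genes was not tested. The lymphocyte genes themselves, at 1 to 6 counts a library apart from Ptprc, were too low to be read against either direction.

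The genes whose level went most with Ptprc over the 14 neuron libraries were Tbxas1, Glud1, Hk3, Ring1 and Slc15a3. Their Pearson r with Ptprc, on log2 CPM centred on the mean of each experiment, was 0.952, 0.9501, 0.946, 0.941 and 0.940 among 14847 genes. The libraries of an experiment share their table and groups, and the r is a description with no test.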

How the data were processed

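RNA was measured in 14 primary neuron and 3 hippocampus libraries of C57BL/6 mice. Per the labels, libraries were made with the NEBNext Ultra RNA kit from 2 μg of Trizol total RNA. The authors deposited whole-number gene counts with no normalization in 4 tables. HTSeq 0.6.0, HISAT2 2.1.0, Bowtie2 2.2.3 and mm10 are listed in the submitters' processing notes, without their roles. Whether strand was used in counting is not given in the sources used here.

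Earlier results of these data were known when the genes and lists were chosen. CPM uses the library total, and RPKM also the union of GENCODE M21 exons. Hippocampus groups have 1 library each, so a difference is called past 2-fold where the higher library has 10 or more counts, and ratios carry exact 95% binomial intervals of the pair of counts; sums and levels carry exact Poisson intervals. A count of 0 allows up to 3 counts, 0.159 to 0.169 CPM in these libraries. Median ratios use a prior of 0.5 counts. Neuron comparisons used edgeR 4.0.16 in R 4.3.3 (TMM, filterByExpr, robust quasi-likelihood test, adjusted p under 0.05), checked on simulated counts, with the 3 groups of set 2 in a single fit. The simulated counts had the same fixed spread for all genes and changes only in genes of higher counts. That check therefore does not show power or error at the spread of these libraries. In set 2, 1489 genes with values only in the reconstituted particle libraries, Cd3e among them, were left out of the tests. Intervals cover counting error only. The labels name no molecular identifiers, so copies of the same molecule could have been counted more than once, which the intervals do not cover.

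The text names all 10 genes, up to 4 genes of each list with the most counts over the hippocampus libraries, up to 4 called list genes of each neuron comparison by lowest adjusted p, and the 5 genes most like Ptprc with a mean of at least 1 CPM; names outside this rule are marked. Alternatives were DESeq2 1.42.0, its size factors, no low-count filter, a replicate block, other scaling factors, a minimum of 50 counts, sums without Cd8a, and leaving out each neuron library.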

Additional observations from a re-analysis of the deposited data

How the results depend on the processing

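The counts of lymphocyte genes called in the 4 neuron comparisons were the same under each alternative run. The main fits tested only Ptprc with ADM and in set 1, and none of these genes in set 2, so that little could change. Counts past 2-fold in the hippocampus were the same with TMM factors and with a minimum of 50 counts. Each gene had 51 counts or more in the control shRNA library with FC, so that this minimum could change no call that uses that library. Ptprc in set 1 ranged from 2.06 to 2.22 on the log2 scale, with an adjusted p of at most 9.10e-05. Ptprc with ADM, without 1 library each, ranged from -0.92 to 1.06, and turned to 1.06 without the second ADM control library (adjusted p = 0.999), the control with 45 counts; the cause was not tested. The ratio of summed counts ranged from 41.4 to 47.8 (FC over no FC), 0.00423 to 0.00664 (ApoE shRNA over control shRNA with FC) and 0.202 to 0.275 (ApoE shRNA with FC over no FC), over both other scalings and without Cd8a. 1 library per group limits every hippocampus value, and counts of 0 to 5 limit the folds.

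Labels number the libraries within neuron groups but do not pair them. Same-numbered libraries deviated together with a correlation of 0.48 across genes for ADM, 0.02 in set 1 and -0.08 to 0.04 in set 2. With the replicate block, Ptprc had a log2 fold change of 2.15 in set 1 (adjusted p = 4.43e-08) and -0.06 with ADM (adjusted p = 0.966), and the called lymphocyte genes stayed 1 and 0 in number. Over all genes, the block gave 465 calls with ADM against 0 without it, no filter on low counts gave 128, and leaving out a library gave 0 to 641. Set 1 had 5993 calls, 3521 to 7610 without a library; set 2 had 3617 with the ApoE particle, 2297 to 2942 without a library, and DESeq2 called 2499; the reconstituted particle had 0, with at most 8 (no filter).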
